A study of Rattus norvegicus with 9 samples.

Results

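The NF-κB transcription factors and the genes that restrain them were followed in the spinal cord of rats at 35 days after surgery (dpi, days post-injury, for the injured animals). The set held 10 genes chosen by symbol, out of 25099 symbols in the count table. Of these, Nfkb1, Nfkb2, Rel, Rela and Relb encode the 5 subunits, Nfkbia, Nfkbie, Bcl3 and Tnfaip3 encode inhibitors or modulators, and Ikbke encodes an IκB kinase. Each symbol matched 1 row except Nfkbie, which stood on 2 rows, and the row with the higher total was used. All 10 genes passed the filter on low counts in each comparison. There were 3 young adult, wild-type female Sprague-Dawley rats in each of 3 groups, and the 9 libraries came from whole tissue of the T9 to T11 segments. Sham rats are labelled as untreated, whereas the study's methods describe a laminectomy without contusion. SCI rats received a contusion at T10 and carried a plug without an electrode. SCI + SCS rats received the same contusion, an epidural electrode and daily high-frequency stimulation until the end of the experiment, so electrode and current cannot be told apart here (injured rats with an electrode and no current were not analysed here). The study's methods kept rats for later experiments only below a set mechanical withdrawal threshold. All libraries carry a single batch label.

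NF-κB is a dimer of Rel family subunits that is held in the cytoplasm by IκB proteins until an IκB kinase marks the inhibitor for degradation. In the canonical arm, dimers of RelA (p65) with the p50 product of Nfkb1 are released from IκBα, whereas the non-canonical arm processes the Nfkb2 product p100 to p52, which pairs with RelB. Several genes of the system, among them Nfkbia, Tnfaip3, Nfkb2 and Relb, are themselves textbook NF-κB targets, which gives the pathway its feedback loops. In spinal cord, NF-κB is best known for driving cytokine and chemokine genes in microglia, macrophages and astrocytes.

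Sequencing depth was high for all members except Rel, with between 62844376 and 88358570 counts per library. Rel had 31 to 101 counts per library, and the lowest count of any other member was 43, for Bcl3 in Sham replicate 1. Among the injured libraries, SCI replicates 1 and 3 stood apart in skeletal muscle marker genes, whose summed level (29 genes) was 5879 and 2219 CPM (counts scaled to library size, normalized by TMM) against 315 to 409 CPM in the other 7 libraries. The summed adipocyte markers were at 3.36 to 9.78 CPM in Sham, 91.7 to 121 CPM in SCI and 28.7 to 46.0 CPM in SCI + SCS, without overlap. Removing muscle and adipocyte marker genes before normalization changed no call on a member. That step leaves in place any reads of the members from such tissue, and their part was not tested.

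The promoters were examined for the κB decamer consensus, the motif that NF-κB dimers bind, because it shows which of these genes carry the family's own binding motif beside their start. RefSeq promoter sequences (build GRCr8, 250 bases before to 50 bases after the start) matched 8 of the 10 genes. Relb and Ikbke had no entry. Of these 8 promoters, 7 held the consensus on either strand, against 4.18% of all 33469 promoters in the table and 4.49% of the 21842 promoters of protein-coding genes. Other pathway lists, described below, held it too. It was in 7 of 18 promoters of textbook NF-κB targets, 2 of 5 of TBK1 partners, 1 of 3 of other IκB proteins and 1 of 2 of the IKK complex. It was in 2 of 20 promoters of upstream kinases and adaptors and 1 of 7 of other deubiquitinases and A20-binding inhibitors. A looser pattern that contains the consensus, GGGNNNNNCC, was found in 8 of 8 against 47.3% of all promoters and 52.8% of those of protein-coding genes. It was also in 3 of 3 promoters of other IκB proteins, 5 of 5 of TBK1 partners, 14 of 18 of targets and 15 of 20 of upstream genes. In the IKK complex it was in 1 of 2, and in the other deubiquitinases and A20-binding inhibitors in 4 of 7. The windows of 30 bases around the consensus are printed 5′ to 3′ along the gene, with the matched bases in capitals.
Nfkb1: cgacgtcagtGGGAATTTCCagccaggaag
Nfkb2: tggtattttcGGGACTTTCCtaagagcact
Rel: cgtaggcagcGGGAAATCCCCccccgttcc
Nfkbia: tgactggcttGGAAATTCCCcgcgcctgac
Nfkbie: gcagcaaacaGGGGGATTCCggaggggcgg
Bcl3: tcggcggcagGGGAAGTCCCgcagcccggc
Tnfaip3, distal: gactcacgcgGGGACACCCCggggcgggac
Tnfaip3, proximal: gactGGAAAGTCCCtcGGAAATCCCCctgt

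The window of Nfkb2 lies at chr1:255108344-255108373 on the plus strand, with its match starting at base -20 from the start. The window of Nfkbia lies at chr6:78597084-78597113 on the minus strand, with the match at base -31, and that of Bcl3 at chr1:88613574-88613603 on the minus strand, with the match at base -38. Tnfaip3 held the most, 3 matches starting at bases -170, -67 and -55, in windows at chr1:15544130-15544159 and chr1:15544021-15544050 on the minus strand. Rel held 2 overlapping matches at bases -82 and -81 (chr14:101922001-101922030, minus strand). The match of Nfkb1 started at base 4 after the start (chr2:226805440-226805469, minus strand), and that of Nfkbie at base -164 (chr9:22948017-22948046, minus strand). The promoter of Rela, which encodes the main activating subunit, held no consensus match and 1 match of the looser pattern. These matches describe letters in the promoter windows and were not tested as binding sites.

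Per length, Nfkbia and Rela were the most abundant reliable transcripts, and Rel was the least abundant. In the Sham group, Nfkbia was at 24.8 ± 4.73 FPKM (fragments scaled to gene length and library size, mean ± SD, n = 3), Rela at 13.2 ± 2.49 FPKM and Nfkb1 at 5.37 ± 0.784 FPKM. Nfkb2 at 3.53 ± 1.15 FPKM and Relb at 2.01 ± 0.383 FPKM followed, with ranges that touched their neighbours' in that order. Bcl3 (0.983 ± 0.684 FPKM) and Ikbke (0.962 ± 0.296 FPKM) did not differ beyond their spread, and Tnfaip3 (0.524 ± 0.1003 FPKM) lay above Rel (0.209 ± 0.106 FPKM). In the SCI group, Nfkb2 (12.2 ± 2.22 FPKM) stood above Nfkb1 (9.34 ± 2.11 FPKM), the reverse of the Sham order, although the 2 ranges overlapped. Ikbke reached 5.01 ± 0.404 FPKM and Bcl3 4.71 ± 1.0001 FPKM in that group, beside 6.67 ± 1.48 FPKM for Relb. The FPKM of Rel should be read with care, since the length implied by its counts and FPKM varied 1.30-fold between libraries, against at most 1.09-fold for the other members.

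**Figure D1:**
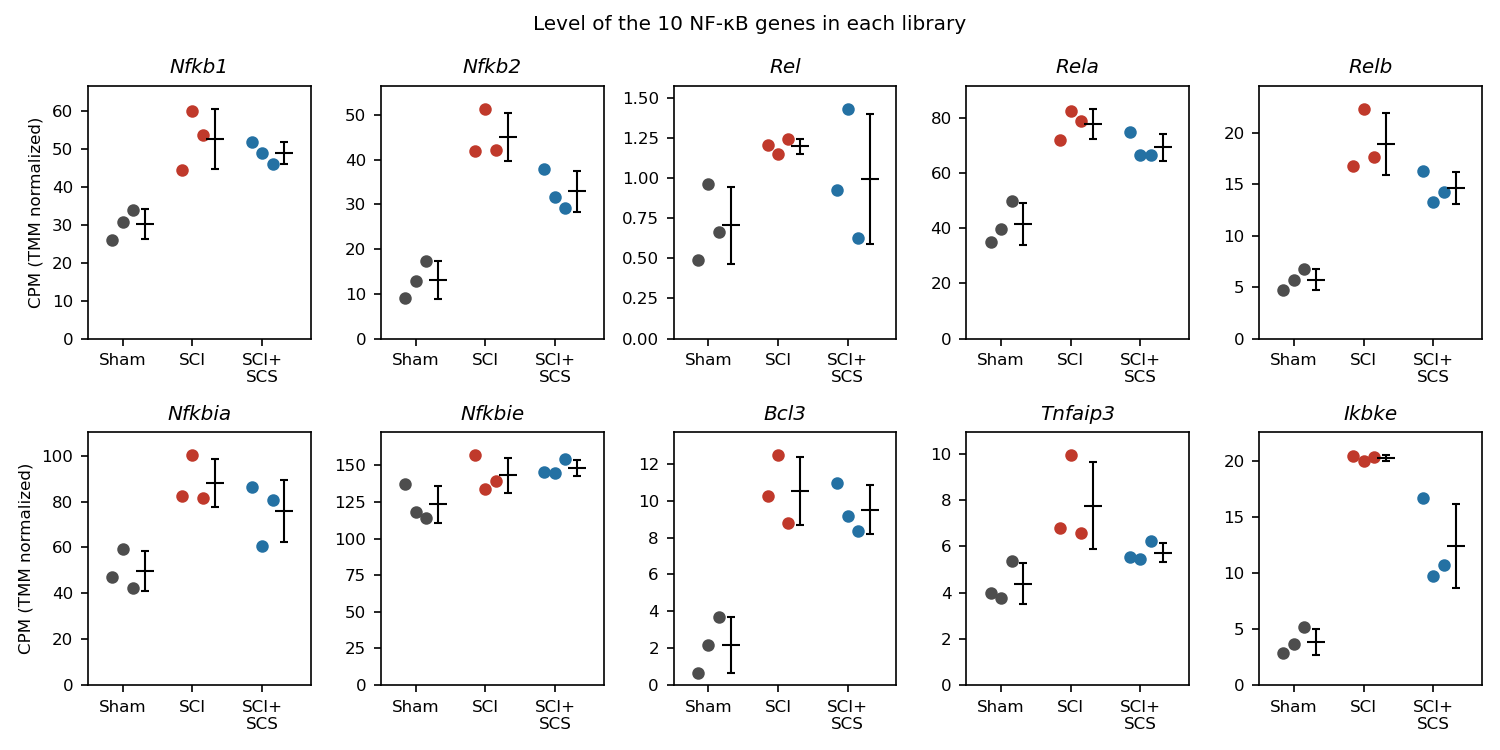
TMM-normalized CPM (y axis, from 0, a separate scale for each gene) of the 10 genes in each library per group (Sham, SCI and SCI + SCS), with the mean ± SD of 3 rats in black beside the points. In all genes except Nfkbie the SCI libraries lie above the Sham libraries, and for Ikbke the SCI libraries lie at 20.01 to 20.46 CPM and the SCI + SCS libraries at 9.77 to 16.7 CPM.

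The comparison of SCI with Sham asked how injured cord differed from uninjured cord at 35 dpi. The quasi-likelihood test of edgeR called 8 of the 10 genes higher in SCI (Benjamini-Hochberg adjusted p under 0.05 over all 17822 genes tested), where 24.3% of all genes were called higher and 25% lower. Bcl3, Ikbke, Nfkb2 and Relb were also DEGs (adjusted p under 0.05 and |log2FC| above 1), against 13.4% of all genes that were DEGs in this direction. The SCI libraries lay above all Sham libraries in 9 of 10 genes, against 32.6% of all genes. The median log2FC of the 10 genes was 0.85, and that of all genes tested was 0.02. In this bulk tissue, a larger number of cells that express a gene and more RNA per cell cannot be told apart.

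The comparison of SCI + SCS with SCI asked whether stimulation changed these genes in injured cord. By edgeR's quasi-likelihood test 0 of the 10 genes were called, where 1 of 17663 genes tested was called (0.00566%). At an unadjusted p under 0.05, Nfkb2, Relb and Ikbke were lower (3 of 10, against 10.9% of all genes in this direction), and DESeq2 called Nfkb2 and Ikbke lower at an adjusted p under 0.05, against 6.9% of the 16503 genes it gave an adjusted p. The log2FC was below 0 in 9 of 10 genes, against 50.7% of all genes, with a median of -0.23. SCI + SCS libraries lay below all SCI libraries in 4 genes (Nfkb2, Relb, Tnfaip3 and Ikbke), against 13.9% of all genes. In FPKM, which carry no TMM normalization, the libraries of Ikbke still did not overlap, whereas those of Nfkb2 (8.09 to 10.5 FPKM in SCI + SCS, 10.1 to 14.5 FPKM in SCI), Relb and Tnfaip3 did. This comparison shares its SCI libraries with the previous one, so the values of both are not independent.

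The comparison of SCI + SCS with Sham asked what difference from uninjured cord was present in stimulated injured cord. Of the 10 genes, 7 were higher in the SCI + SCS group by edgeR's quasi-likelihood test, where 16.2% of the 17640 genes tested were called higher, and Bcl3, Ikbke, Relb and Nfkb2 were DEGs, against 6.28%. Leaving out Sham replicate 2 reduced the 7 calls to 3, and leaving out SCI + SCS replicate 1 reduced them to 4. The median log2FC of the 10 genes was 0.72. Libraries of the SCI + SCS group lay above all Sham libraries in 9 of 10 genes, against 27.2% of all genes. These genes include Nfkbie, and on its other row the SCI + SCS libraries lay below all Sham libraries.

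**Figure D2:**
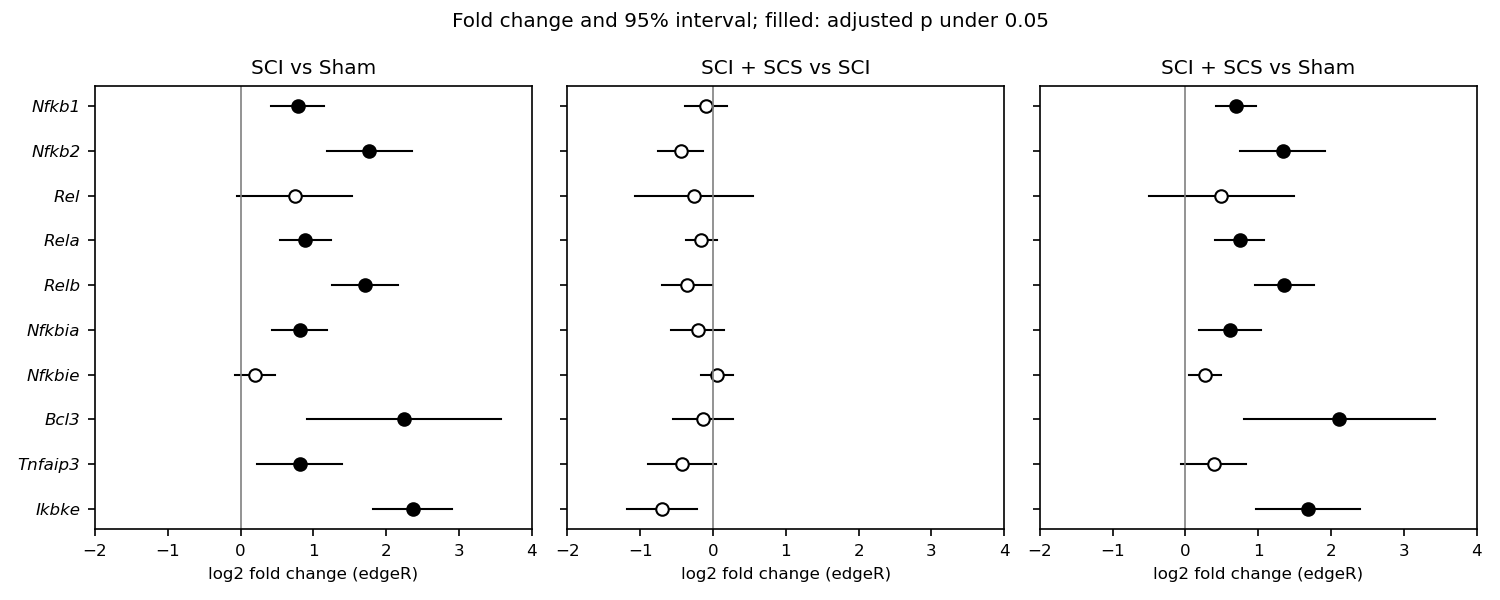
log2 fold change (points) and 95% interval (lines) of each gene in the 3 comparisons, from edgeR with 3 libraries per group, with filled points where the adjusted p was under 0.05. In SCI vs Sham 8 points are filled, in SCI + SCS vs SCI 0 and in SCI + SCS vs Sham 7, and the lowest point of the middle panel is Ikbke at -0.70.

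Among the canonical subunits, Rela and Nfkb1 rose in the SCI group by less than 2-fold. Rela (chr1:202924945-202935484, mRatBN7.2, plus strand), the main activating subunit, was at 35.1, 39.5 and 49.8 CPM in the Sham libraries, 71.99, 82.6 and 79.0 CPM in the SCI libraries and 74.9, 66.4 and 66.6 CPM in the SCI + SCS libraries (replicates 1, 2 and 3 in each). The SCI and SCI + SCS libraries overlapped each other and stood above all Sham libraries. The log2FC was 0.89 ± 0.15 (SE) in SCI vs Sham (adjusted p = 0.00396 by edgeR, quasi-likelihood test and Benjamini-Hochberg adjustment, as for each edgeR value here), and -0.16 ± 0.09 in SCI + SCS vs SCI (adjusted p = 0.336 by edgeR, 95% interval -0.38 to 0.06). Against Sham, SCI + SCS gave a log2FC of 0.74 ± 0.14 (adjusted p = 0.0127 by edgeR), a call that was lost without Sham replicate 2 (adjusted p = 0.0560) or SCI + SCS replicate 1 (adjusted p = 0.0530). Nfkb1 (chr2:224016214-224110404, minus strand), the gene of p105 and p50, was at 26.0, 30.8 and 33.9 CPM in Sham, 44.4, 60.0 and 53.8 CPM in SCI and 51.8, 49.0 and 46.1 CPM in SCI + SCS. Its 2 injured groups overlapped as well. The log2FC of Nfkb1 was 0.78 ± 0.15 in SCI vs Sham (adjusted p = 0.00685 by edgeR), -0.10 ± 0.12 in SCI + SCS vs SCI (adjusted p = 0.660 by edgeR, 95% interval -0.39 to 0.19) and 0.70 ± 0.12 in SCI + SCS vs Sham (adjusted p = 0.00926 by edgeR).

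Rel, which encodes c-Rel, a subunit best known from lymphoid and myeloid cells, was near 1 CPM throughout. It was at 0.487, 0.965 and 0.663 CPM in Sham, 1.21, 1.15 and 1.24 CPM in SCI and 0.926, 1.43 and 0.627 CPM in SCI + SCS. The SCI libraries lay above the Sham libraries, and the SCI + SCS libraries spanned values of both. The difference did not pass the test in any comparison, with a log2FC of 0.74 ± 0.33 in SCI vs Sham (adjusted p = 0.105 by edgeR, 95% interval -0.05 to 1.54). For SCI + SCS vs SCI the log2FC of Rel was -0.26 (95% interval -1.07 to 0.55), and in SCI + SCS vs Sham it was 0.49 (95% interval -0.50 to 1.48).

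The non-canonical subunits Nfkb2 and Relb rose more than 3-fold in the SCI group. Nfkb2 (chr1:245165950-245173213, plus strand), which encodes p100 and p52, was at 8.96, 12.96 and 17.3 CPM in Sham, 41.9, 51.3 and 42.1 CPM in SCI and 38.0, 31.7 and 29.2 CPM in SCI + SCS. The 3 groups did not overlap, with the SCI + SCS libraries between the others. The fold change was 3.41 in SCI vs Sham (log2FC 1.77 ± 0.24, adjusted p = 0.00245 by edgeR). The log2FC of Nfkb2 in SCI + SCS vs SCI was -0.44 ± 0.13, which edgeR did not call (adjusted p = 0.116, 95% interval -0.75 to -0.14) and DESeq2 did (adjusted p = 0.0282). Against Sham it was 1.33 ± 0.24 (adjusted p = 0.0115 by edgeR, and 0.0506 without Sham replicate 2). Relb (chr1:79257725-79285507, minus strand), the partner of p52, was at 4.72, 5.64 and 6.78 CPM in Sham, 16.8, 22.3 and 17.6 CPM in SCI and 16.3, 13.3 and 14.3 CPM in SCI + SCS. As for Nfkb2, the groups did not overlap, although SCI + SCS replicate 1 lay within 0.5 CPM of SCI replicate 1. The fold change of Relb was 3.27 in SCI vs Sham (log2FC 1.71 ± 0.19, adjusted p = 0.00165 by edgeR). The log2FC of Relb was -0.36 ± 0.15 in SCI + SCS vs SCI (adjusted p = 0.189 by edgeR and 0.120 by DESeq2) and 1.36 ± 0.17 in SCI + SCS vs Sham (adjusted p = 0.00478 by edgeR).

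The mean shares of the subunit transcripts differed between the groups in these libraries. Shares of 1 total depend on each other, so they are not separate results. As a share of the summed FPKM of the 5 subunit genes, Rela took 54.4% ± 1.57 in Sham, 46.5% ± 1.61 in SCI and 48.8% ± 0.714 in SCI + SCS (SD, n = 3), and Nfkb1 took 22.2% ± 1.43, 17.5% ± 0.969 and 19.3% ± 0.618. Nfkb2 took 14.2% ± 2.003, 22.9% ± 1.11 and 19.7% ± 1.09, and Relb 8.26% ± 0.0517, 12.5% ± 0.765 and 11.5% ± 0.609. The shares of Rela, Nfkb1 and Nfkb2 did not overlap between any 2 groups, with SCI + SCS between Sham and SCI each time, whereas the share of Relb overlapped between SCI and SCI + SCS. Rel stayed under 1% on average in each group. The ratio of Nfkb2 to Nfkb1 in FPKM was 0.525, 0.632 and 0.780 in the Sham libraries, 1.45, 1.31 and 1.20 in the SCI libraries and 1.12, 0.991 and 0.962 in the SCI + SCS libraries. The ratio of Relb to Rela was 0.149 to 0.157 in Sham, 0.247 to 0.298 in SCI and 0.221 to 0.244 in SCI + SCS. Neither ratio overlapped between groups, and an exact permutation test (two-sided) gave p = 0.1 for each ratio in each comparison, the smallest p that 3 libraries against 3 can give. At this size the test cannot reach 0.05, so it did not establish a difference beyond these libraries. By contrast, the ratio of Nfkbia to Rela overlapped in all comparisons, at 1.93 ± 0.516 in Sham, 1.78 ± 0.150 in SCI and 1.71 ± 0.255 in SCI + SCS (exact permutation p of at least 0.6).

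**Figure D3:**
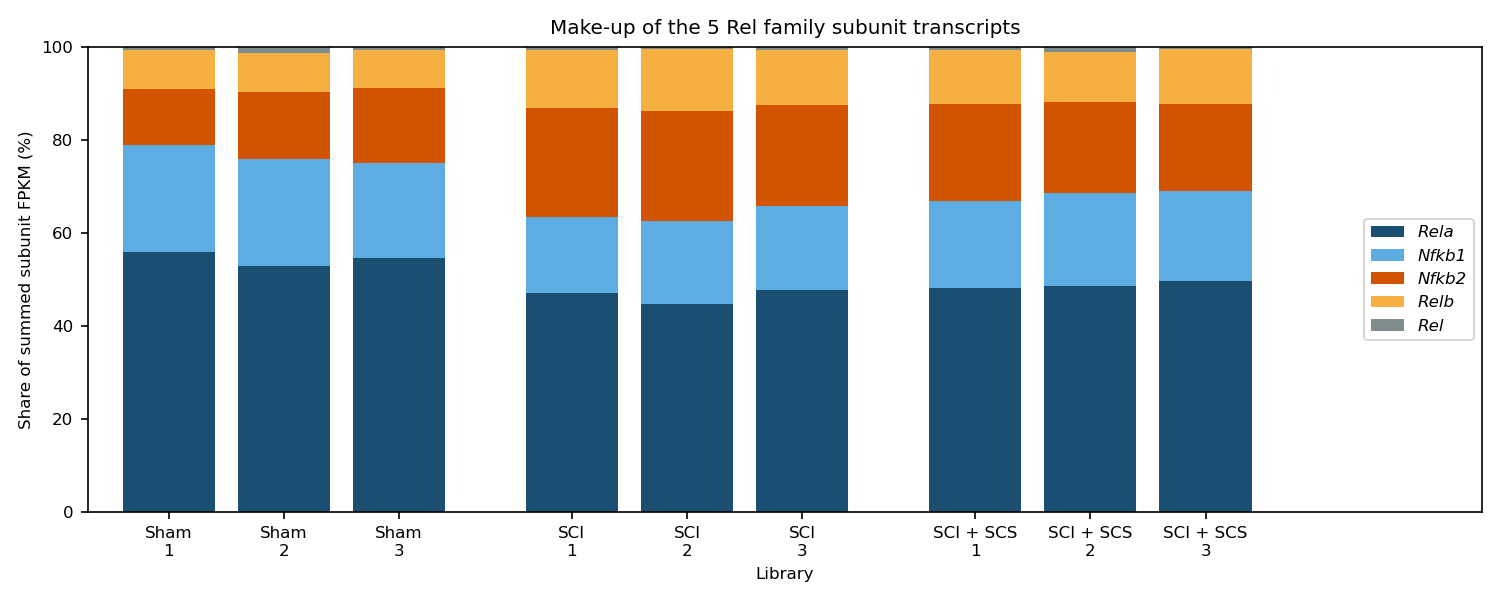
Share of each Rel family subunit gene in the summed FPKM of the 5 (y axis, percent), stacked for each of the 9 libraries. The Nfkb2 segment takes 12.1% to 16.1% in the Sham libraries, 21.7% to 23.6% in the SCI libraries and 18.7% to 20.8% in the SCI + SCS libraries.

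Of the IκB proteins in the set, Nfkbia was higher in both injured groups, and the values of Nfkbie depended on the row used. Nfkbia (chr6:72858712-72861941, minus strand), the gene of IκBα, the inhibitor that NF-κB resynthesizes after each activation, was at 47.1, 59.2 and 42.5 CPM in Sham, 82.6, 100.1 and 81.3 CPM in SCI and 86.2, 60.5 and 80.5 CPM in SCI + SCS. All injured libraries exceeded the Sham libraries, and SCI + SCS replicate 2 lay closest to them. The log2FC of Nfkbia was 0.81 ± 0.16 in SCI vs Sham (adjusted p = 0.00725 by edgeR) and -0.21 ± 0.15 in SCI + SCS vs SCI (adjusted p = 0.445 by edgeR, 95% interval -0.57 to 0.15). Against Sham the SCI + SCS group gave 0.61 ± 0.18 (adjusted p = 0.0405 by edgeR). That last call was lost when Sham replicate 1, 2 or 3 or SCI + SCS replicate 1 or 3 was left out, with an adjusted p between 0.0516 and 0.130.

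Nfkbie, the gene of IκBε, could not be measured with certainty. Its identifier stood on 2 rows of the same position (chr9:15436941-15450437, minus strand), which overlaps Aars2 on the same strand over its whole span and Hsp90ab1 on the other strand over part of it. The row with the higher total had 8742 to 12347 counts and an implied transcript length of 8821 to 9237 bases, whereas the other row had 331 to 1460 counts and an implied length of 3971 to 4145 bases. RefSeq (GRCr8) lists Slc35b2 both as a separate gene and as a synonym of Nfkbie, and the count table has 0 rows for Slc35b2. On the row with the higher total, Nfkbie was at 137, 118 and 114 CPM in Sham, 157, 134 and 139 CPM in SCI and 145, 145 and 154 CPM in SCI + SCS. On this row no comparison passed the test by edgeR (log2FC 0.20 ± 0.12 in SCI vs Sham, adjusted p = 0.201 by edgeR, and 0.27 ± 0.09 in SCI + SCS vs Sham, adjusted p = 0.0696 by edgeR). The SCI + SCS libraries lay above all Sham libraries, and the difference between these groups was called without Sham replicate 1 (adjusted p = 0.0244 by edgeR) and by limma on log2(FPKM + 1) and log2(FPKM + 0.1), with an adjusted p of 0.0394 and 0.0404. On the other row, the level was 10.7, 7.16 and 16.7 CPM in Sham, 5.82, 14.0 and 7.27 CPM in SCI and 5.33, 4.69 and 5.72 CPM in SCI + SCS. There the direction was the opposite, with a log2FC of -0.37 ± 0.42 in SCI vs Sham (adjusted p = 0.499 by edgeR), -0.77 ± 0.33 in SCI + SCS vs SCI (adjusted p = 0.205 by edgeR) and -1.13 ± 0.31 in SCI + SCS vs Sham (adjusted p = 0.0338 by edgeR).

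Bcl3 and Tnfaip3, which modulate or end NF-κB signalling, were both higher in the SCI group. Bcl3 (chr1:79471369-79485607, minus strand), a nuclear IκB protein that binds p50 and p52 dimers on DNA, was at 0.676, 2.18 and 3.71 CPM in Sham, 10.3, 12.5 and 8.81 CPM in SCI and 10.96, 9.19 and 8.37 CPM in SCI + SCS. The injured groups overlapped each other and stood above all Sham libraries, which themselves spread over more than 5-fold. The fold change of Bcl3 was 4.74 in SCI vs Sham (log2FC 2.24 ± 0.56, 95% interval 0.91 to 3.58, adjusted p = 0.0165 by edgeR). The call was lost without Sham replicate 2 (adjusted p = 0.0585) or SCI replicate 2 (adjusted p = 0.0507), with the log2FC still above 2. For SCI + SCS vs SCI the log2FC of Bcl3 was -0.14 ± 0.18 (adjusted p = 0.671 by edgeR, 95% interval -0.55 to 0.28). Against Sham it was 2.11 ± 0.55 (adjusted p = 0.0298 by edgeR), which was between 0.0644 and 0.0958 without Sham replicate 2 or any 1 of the SCI + SCS libraries.

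Tnfaip3 (chr1:13709206-13723498, minus strand), the gene of A20, a ubiquitin-editing enzyme that shuts off signalling upstream of the IκB kinases, was at 3.99, 3.75 and 5.39 CPM in Sham, 6.78, 9.93 and 6.57 CPM in SCI and 5.54, 5.43 and 6.22 CPM in SCI + SCS. The 3 groups did not overlap, with the SCI + SCS libraries just above Sham replicate 3 and just below SCI replicate 3. The log2FC of Tnfaip3 was 0.81 ± 0.24 in SCI vs Sham (adjusted p = 0.0314 by edgeR). This call was lost without Sham replicate 1, Sham replicate 2 or SCI replicate 2, with an adjusted p of 0.0812, 0.106 and 0.0915, and by limma on log2(FPKM + 1) and log2(FPKM + 0.1), with an adjusted p of 0.0707 and 0.0748. For SCI + SCS vs SCI the log2FC of Tnfaip3 was -0.43 ± 0.20 (adjusted p = 0.237 by edgeR, 95% interval -0.90 to 0.04). Against Sham it was 0.39 ± 0.19 (adjusted p = 0.147 by edgeR, and 0.0434 without Sham replicate 3).

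Ikbke and Bcl3 had the highest log2FC of the 10 genes in SCI vs Sham. Their order turned without Sham replicate 3, where the log2FC was 2.84 for Bcl3 and 2.61 for Ikbke, and by limma on log2(FPKM + 0.1), at 2.38 and 2.30. Ikbke (chr13:42712159-42737143, minus strand) encodes IKKε, an inducible kinase related to TBK1 that acts in both NF-κB and interferon signalling. Its level was 2.85, 3.65 and 5.15 CPM in Sham, 20.46, 20.01 and 20.37 CPM in SCI and 16.7, 9.77 and 10.7 CPM in SCI + SCS. The SCI libraries were nearly equal, the groups did not overlap, and SCI + SCS replicate 1 lay nearer to the SCI libraries than to the other SCI + SCS libraries. The fold change of Ikbke was 5.16 in SCI vs Sham (log2FC 2.37 ± 0.23, adjusted p = 0.00130 by edgeR). Between SCI + SCS and SCI it was 0.616 (log2FC -0.70 ± 0.20, 95% interval -1.18 to -0.22), which edgeR did not call (adjusted p = 0.114) and DESeq2 did (adjusted p = 0.0148). Without SCI + SCS replicate 1 the log2FC was -0.97 and edgeR called it (adjusted p = 0.0499). Against Sham the log2FC of Ikbke in SCI + SCS was 1.68 ± 0.30 (adjusted p = 0.0108 by edgeR).

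The rest of the pathway, 70 genes in 6 lists present in the table, was examined in the same fits. In SCI vs Sham the IKK complex was split, as Ikbkb (the kinase subunit IKKβ of the canonical arm) rose by a log2FC of 0.93 ± 0.12 (adjusted p = 0.00226 by edgeR) and Chuk (IKKα) fell by 0.61 on the log2 scale (adjusted p = 0.00352 by edgeR). Ikbkg, the scaffold NEMO, was at 2.91 CPM against 2.98 CPM in Sham. Of 3 other IκB proteins, Nfkbiz (log2FC 1.04) and Nfkbid (log2FC 0.94), both nuclear IκB proteins like Bcl3, were higher, whereas Nfkbib, the gene of the cytoplasmic IκBβ, was at a log2FC of 0.08 (adjusted p = 0.567 by edgeR). Of 7 tested deubiquitinases and A20-binding inhibitors, Tnip2 (log2FC 1.38) and Tnip1 (log2FC 0.59) were higher. Rnf11 (log2FC -1.07) and Cyld (log2FC -0.48), a deubiquitinase that restrains the pathway, were lower. Over all genes tested, edgeR called 24.3% higher and 25% lower, so 2 of 7 in each direction lay near these shares.

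Upstream kinases and adaptors were mostly higher in the SCI group, with 17 of 27 called higher and 2 lower by edgeR, against 24.3% and 25% of all genes tested. Among the called genes the log2FC was farthest from 0 for Tab3 (-2.38), an adaptor of the kinase TAK1, Traf1 (2.01) and Birc3 (1.72), which act at TNF receptor family members, and Tradd (1.45), the adaptor of TNF receptor 1. Of 5 partners of TBK1, the kinase closest to IKKε, Irf3 was higher (71.6 CPM in SCI against 31.5 CPM in Sham, log2FC 1.16), and the other 4 did not pass the test. Of 23 tested textbook target genes, 13 were higher and 3 lower, read against the same shares of all genes. Bcl2a1, a survival gene of myeloid cells, rose from 2.22 CPM to 45.1 CPM (log2FC 4.33), and the chemokine genes Cxcl1 (log2FC 3.04), Ccl2 (2.79) and Cxcl10 (2.72) followed. These chemokine genes were low in Sham, at 0.141 to 0.297 CPM (Cxcl1), 0.377 to 1.72 CPM (Ccl2) and 0.927 to 3.93 CPM (Cxcl10). In SCI they spread over 1.03 to 2.92 CPM, 5.11 to 9.49 CPM and 8.87 to 25.7 CPM in that order. The 3 lower targets, named after their values were seen, were Xiap and Bcl2l1, which encode inhibitors of apoptosis, and Sod2, which encodes the mitochondrial superoxide dismutase.

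In SCI + SCS vs SCI, 0 genes of these 6 lists were called by edgeR, whereas DESeq2 called 11 lower and 1 higher of the 64 it gave an adjusted p, against 6.9% lower and 8.83% higher of all genes it gave one. The gene called higher by DESeq2 was Rnf11 (adjusted p = 0.000165). Of the genes called lower, 7 were targets (Bcl2a1, Irf1, Ccl2, Ccl5, Icam1, Gadd45b and Il1b), 2 were the adaptors Tradd and Myd88, and the others were Irf3 and Tnip2, all named after their values were seen. By edgeR the log2FC was below 0 in 21 of 27 upstream genes and 15 of 22 target genes, against 50.7% of all genes. At an unadjusted p under 0.05, 5 of 27 upstream genes and 8 of 22 target genes were lower, against 10.9% of all genes. Bcl2a1 was at 39.0, 49.1 and 47.2 CPM in the SCI libraries and 24.6, 20.7 and 18.3 CPM in the SCI + SCS libraries (log2FC -1.08 ± 0.14, adjusted p = 0.0719 by edgeR and 1.92e-08 by DESeq2), without overlap. Ikbkb was at 38.8 CPM in SCI + SCS against 44.9 CPM in SCI, and Chuk at 32.1 CPM against 28.7 CPM. In SCI + SCS vs Sham, 9 of 23 target genes and 13 of 27 upstream genes were higher, and 2 genes of each list were lower. Of all genes, 16.2% were called higher and 16.2% lower.

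**Figure D4:**
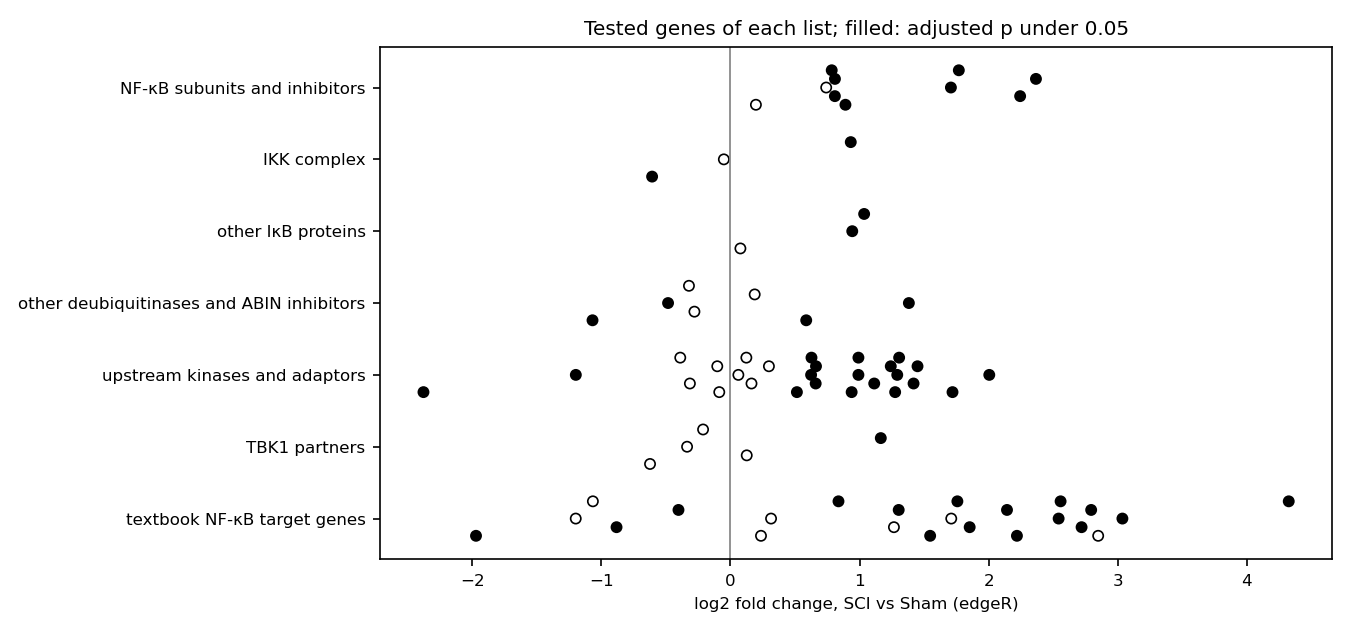
log2 fold change in SCI vs Sham (x axis) of each tested gene, by list (rows, points spread vertically for legibility), with filled points where edgeR's adjusted p was under 0.05. The 10 subunit and inhibitor genes lie above 0, whereas each of the lists of IKK complex, deubiquitinases, upstream genes and targets has called genes on both sides of 0.

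Cell type markers moved between the groups as well. The marker counts are read against all genes tested, of which edgeR called 24.3% higher and 25% lower in SCI vs Sham. In SCI + SCS vs SCI, 50.7% of all genes had a log2FC below 0, and 10.9% were lower at an unadjusted p under 0.05. The summed level of 13 microglia and macrophage markers was 362 to 676 CPM in Sham, 2459 to 3210 CPM in SCI and 2103 to 2355 CPM in SCI + SCS, and 10 of these 13 genes were called higher in SCI vs Sham. Over the same libraries the summed level of the set without Nfkbie was 130 to 165 CPM, 296 to 360 CPM and 247 to 301 CPM. In SCI + SCS vs SCI, 11 of the 13 microglia and macrophage markers had a log2FC below 0 (median -0.33). Of the 13, 7 were lower at an unadjusted p under 0.05, and edgeR called 0. Mean CPM in Sham, SCI and SCI + SCS was 89.0, 686 and 542 for C1qa, but 48.7, 70.8 and 80.8 for Cx3cr1. It was 31.8, 42.7 and 44.8 for Tmem119 and 28.7, 32.4 and 31.8 for P2ry12, all named after their values were seen. Within groups, the order of the libraries in the summed microglia and macrophage markers matched that of the 10 genes in Sham but not in the injured groups. Sham replicate 1 had the lowest summed microglia and macrophage markers and was the lowest Sham library in 7 of the 10 genes, and Sham replicate 3 had the highest and was the highest in 7. In SCI, replicate 1 had the highest markers (3210 CPM) and was the highest library in 2 genes and the lowest in 4, whereas replicate 2 was the highest in 7. In SCI + SCS, replicate 2 had the highest markers (2355 CPM) and was the lowest library in 6 genes, whereas replicate 1 (2180 CPM) was the highest in 7. The T and NK cell markers, of which Klrb1 was at 0, summed to 23.0 to 59.2 CPM in Sham, 140 to 201 CPM in SCI and 115 to 152 CPM in SCI + SCS, with 6 of 8 tested genes called higher in SCI vs Sham. Most of this sum came from Cd4, a gene that rat macrophages also express, at a mean of 36.8 CPM in Sham, 135 CPM in SCI and 116 CPM in SCI + SCS. The T cell gene Cd3e was at 0.267, 2.09 and 0.472 CPM in the same groups, and Nkg7 at 0.191, 1.24 and 0.444 CPM. Of 9 T and NK cell genes tested in SCI + SCS vs SCI, 9 had a log2FC below 0 (median -1.39), 5 of them at an unadjusted p under 0.05, and edgeR called 0. Fibroblast markers summed to 433 to 1961 CPM in Sham, 3438 to 5153 CPM in SCI and 2125 to 3597 CPM in SCI + SCS, with SCI + SCS replicate 1 the highest of its group. They were called higher in 7 of 7 genes in SCI vs Sham, and in SCI + SCS vs SCI 7 of 7 had a log2FC below 0, with 5 at an unadjusted p under 0.05 and 0 called by edgeR. Neuron markers were called lower in 12 of 12 genes in SCI vs Sham, with sums of 5033 to 11230 CPM in Sham, 771 to 2601 CPM in SCI and 2356 to 3950 CPM in SCI + SCS. In SCI + SCS vs SCI, 12 of 12 neuron, 7 of 7 astrocyte and 8 of 8 oligodendrocyte markers had a log2FC above 0. By edgeR 0 of them were called. Schwann cell markers, named after their values were seen, summed to 3453, 5276 and 5371 CPM in Sham replicates 1, 2 and 3. In the same order they summed to 6673, 9890 and 8134 CPM in SCI and 11064, 5187 and 7517 CPM in SCI + SCS. Within each group the libraries ranked by this sum as by the summed set without Nfkbie. The summed adipocyte markers ranked so in each group as well. They were at 91.7, 121 and 109 CPM in SCI replicates 1, 2 and 3, and 46.0, 28.7 and 29.8 CPM in SCI + SCS. Each such order rests on 3 libraries. Astrocyte and oligodendrocyte markers ranked so in Sham only, and fibroblast markers in Sham and SCI + SCS. The part of these cell types in the levels of the NF-κB genes was not tested.

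**Figure D5:**
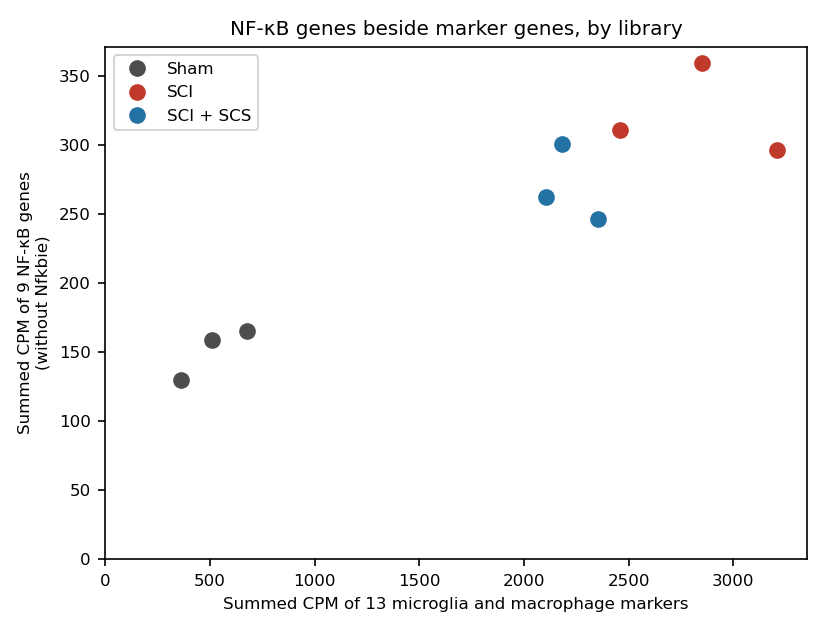
Summed CPM of the set without Nfkbie (y axis, 9 genes) against the summed CPM of 13 microglia and macrophage markers (x axis) in each of the 9 libraries, both axes from 0. Sham libraries lie at 362 to 676 CPM of markers and 130 to 165 CPM of NF-κB genes, apart from the 6 injured libraries, which lie at 2103 to 3210 CPM of markers and 247 to 360 CPM of NF-κB genes.

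The members also varied together between libraries. Across the 9 libraries, which include the group differences, Pearson's r of log2 CPM lay between 0.93 and 0.99 for the 15 pairs among Nfkb1, Nfkb2, Rela, Relb, Bcl3 and Ikbke, and between 0.23 and 0.90 for the other 30 pairs, the lowest being Rel with Nfkbie. These values are a description, as the libraries share their groups and cell make-up. The grouping of these 6 genes was not set in advance, so the contrast with the other pairs is not a separate result. Among 17284 genes tested in all 3 comparisons, the genes most like Nfkb2 were Rreb1 (r = 0.997), Stxbp2 (r = 0.997) and Trim30d (r = 0.996). Those most like Relb were Cmtm3, Arhgef7 and Soat1 (each r = 0.995), and those most like Nfkbia were Tesk1 (r = 0.969), LOC120093819 (r = 0.964) and Zfpm1 (r = 0.963).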

How the data were processed

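Libraries from whole spinal cord tissue at 35 dpi were grouped by their labelled condition and number. Poly(A) RNA was selected before sequencing, and the submitters' processing notes list fastp 0.23.2, HISAT2 2.2.1 and the build mRatBN7.2. The counting program is not given in the sources used here. The authors deposited raw counts per gene row, without normalization, and FPKM, which divide counts by gene length and library total. The count table had 30507 rows. Genes were compared with edgeR 4.0.16 in R 4.3.3 (quasi-likelihood test, TMM, default filter on low counts, 6 libraries of each comparison, no covariates, Benjamini-Hochberg adjustment over all genes). The study names DESeq2, and DESeq2 1.42.0 was an alternative, as was limma 3.58.1 on log2(FPKM + 1) and log2(FPKM + 0.1) where the mean FPKM reached 0.1. Alternatives also varied the filter, normalization, libraries in the fit, replicate block, row sums, muscle and adipocyte genes, call rule and each library. The other row of Nfkbie was added after seeing the data. SE was |log2FC| over the square root of F, and CPM used TMM over 9 libraries. A level of 3 counts was 0.0341 to 0.0472 CPM. Reads carried no molecular identifiers, so such floors cover counting error only. The labels do not name the animals, and the study's methods describe separate rats. An exact permutation test of 3 against 3 cannot give p under 0.1. On simulated data, a minimum recovery of changed genes was required of edgeR and DESeq2, and a limit on false calls of edgeR and limma. No limit was set on the false calls of DESeq2. Same-numbered libraries came from different rats and their deviations did not correlate in every pair (-0.36 to 0.27), so numbers were not treated as pairs. Pathway genes named were those of the IKK complex and other IκB proteins and up to 4 called genes per list with the largest |log2FC| in SCI vs Sham. Genes and lists were chosen with earlier results of these data known. Promoters were RefSeq sequences (GRCr8), searched on both strands in Python.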

Additional observations from a re-analysis of the deposited data

How the results depend on the processing

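Leaving out each library in turn moved the number of the 10 genes called between 6 and 8 in SCI vs Sham, 0 and 1 in SCI + SCS vs SCI and 3 and 7 in SCI + SCS vs Sham. Over all genes, calls then ranged from 0 (without SCI + SCS replicate 2 or 3) to 169 (without SCI + SCS replicate 1) in SCI + SCS vs SCI, and from 2149 (without Sham replicate 2) to 6637 (without Sham replicate 3) in SCI + SCS vs Sham, against 1 and 5710 with all libraries. With DEG thresholds, 4 of the 10 genes remained in SCI vs Sham and 4 in SCI + SCS vs Sham. In SCI + SCS vs SCI, DESeq2 called 2 of the 10 genes and 2595 genes in all, an unadjusted p gave 3 of the 10, a minimum of 10 counts in each library or summed rows gave 0 genes in all, and limma gave 31 genes on log2(FPKM + 1) and 19 on log2(FPKM + 0.1). With the replicate number as a block, 7, 0 and 1 of the 10 genes were called in the 3 comparisons, and 8701, 0 and 1259 genes in all, but the numbers share no rat and pair correlations were mostly near or under 0. Without length (CPM), the share of Rela was 45.5% in Sham, 39.9% in SCI and 41.6% in SCI + SCS. The direction turned for the other row of Nfkbie (-0.37, -0.77 and -1.13) and for Rel in SCI + SCS vs SCI on log2(FPKM + 1), at 0.0069. The cause of these changes was not tested.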
